A study of Mus musculus with 9 samples.

Results

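The genes that encode the proteins of the cytosolic ribosome were examined as a set of housekeeping promoters in CUT&RUN peak lists for HOXA13 and HOXD13. The set was chosen with earlier results of these data known. Its members were defined by symbol, as coding genes on chromosomes 1 to 19 and X named Rpl or Rps followed by a digit. Rplp0, Rplp1, Rplp2 and Rpsa were included and the Rps6k kinases left out. The rule found 86 genes among 21668 coding genes. Of these, 46 encode large subunit proteins, 31 encode small subunit proteins, 8 are paralog genes (Rpl3l, Rpl7l1, Rpl10l, Rpl22l1, Rpl36al, Rpl39l, Rps27l and Rps27rt) and 1, Rps19bp1, encodes a binding partner of a ribosomal protein and no subunit. CUT&RUN uses an antibody to bring micrococcal nuclease to a chromatin protein, and the released fragments are sequenced. The 9 libraries came from distal forelimb (DFL) of mouse embryos of strain B6CBAF1. The wild-type (wt) groups were HOXA13 and HOXD13 at E12.5, with 3 libraries each. The 542 groups came from 1 transgenic line, II1TDOM 542, in which the limb enhancer II1 had been placed with an HBB promoter and lacZ inside T-DOM, the landscape on the other side of the HoxD cluster, and embryos were homozygous for that insertion. For HOXA13 there were 2 such libraries, at E12.5, and for HOXD13 a single one, whose title gives E11.5 while its collection note is the same as for all others. Each library was made from a pool of embryos. Peak lists hold no expression values, so the tissue could not be checked against marker levels, and no control library without a specific antibody was used here.

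Ribosomal protein genes are transcribed in every growing cell, at high and coordinated rates. Their promoters usually lie in CpG-rich, nucleosome-poor DNA, seldom have a TATA box, and start transcription in a short run of pyrimidines, which lets the translation of all these mRNAs be adjusted together. HOXA13 and HOXD13 (together HOX13) are homeodomain factors of the developing digits that recognise AT-rich words. Open promoters of this kind are a common place for signal in nuclease-based assays, so the share of ribosomal protein promoters called in a list is given here as a measure of promoter background.

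The promoters of 5 of these genes are printed to show the sequence at the start of genes that were called in every list (Rpl36a, Rps27l and Rpl38), at a start whose calls differed with the antibody in lists of equal length (Rplp0), and at the start of a ribosomal gene that no list called (Rps4x). The sequences are RefSeq promoters of build GRCm38.p6, from 200 bases before to 30 bases after the RefSeq start, in the direction of transcription. Capitals mark HOX13 words (CTNATAAA, CTNGTAAA, CCNATAAA or CCNGTAAA on either strand), TATAAA, the ETS word CCGGAA, the YY1 word AAGATGGC, and a pyrimidine run of at least 5 bases that begins with C within 5 bases of the start.
Rpl36a, chrX:134585454-134585683, plus strand: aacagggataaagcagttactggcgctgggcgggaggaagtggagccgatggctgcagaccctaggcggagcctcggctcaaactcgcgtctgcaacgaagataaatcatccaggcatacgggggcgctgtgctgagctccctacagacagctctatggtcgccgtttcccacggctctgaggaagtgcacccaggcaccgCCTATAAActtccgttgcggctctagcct
Rps27l, chr9:66945886-66946115, plus strand: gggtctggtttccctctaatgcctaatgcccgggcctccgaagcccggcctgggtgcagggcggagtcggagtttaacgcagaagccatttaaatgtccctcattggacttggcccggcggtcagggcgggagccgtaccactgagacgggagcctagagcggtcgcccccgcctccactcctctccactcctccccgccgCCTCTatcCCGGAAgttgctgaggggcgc
Rpl38, chr11:114668380-114668609, plus strand: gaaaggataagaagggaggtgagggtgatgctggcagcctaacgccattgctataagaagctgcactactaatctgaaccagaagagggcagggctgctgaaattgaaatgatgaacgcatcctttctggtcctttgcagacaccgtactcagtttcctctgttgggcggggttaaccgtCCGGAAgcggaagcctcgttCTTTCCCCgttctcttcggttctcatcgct
Rplp0, chr5:115559267-115559496, plus strand: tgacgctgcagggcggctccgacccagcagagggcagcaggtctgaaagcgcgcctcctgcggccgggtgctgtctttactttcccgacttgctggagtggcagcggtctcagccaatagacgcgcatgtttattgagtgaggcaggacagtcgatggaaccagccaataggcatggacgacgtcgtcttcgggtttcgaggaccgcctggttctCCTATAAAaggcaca
Rps4x, chrX:102189362-102189591, minus strand: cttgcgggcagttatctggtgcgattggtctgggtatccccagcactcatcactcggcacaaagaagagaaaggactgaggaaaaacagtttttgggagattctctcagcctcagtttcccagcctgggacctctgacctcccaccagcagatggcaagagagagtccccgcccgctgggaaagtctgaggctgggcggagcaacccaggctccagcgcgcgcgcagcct
Rpl36a and Rplp0 each hold CCTATAAA, a HOX13 word that also contains TATAAA, 1 and 15 bases after the start. Rpl38 has a CCGGAA at position -20 and the run CTTTCCCC at the start, but its summit lay upstream of the printed stretch in 7 of 9 lists. Rps27l has a CCGGAA 9 bases after the start. The Rps4x window held none of the searched words.

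The lists differed in depth and length. Recovered from the deposited values, the depth per library was 36.9 to 65.5 M read ends, and intervals per list ranged from 23939 (wt HOXD13 replicate 1) to 117719 (542 HOXD13). The HOXD13 library numbered 3 is labelled a reanalysis of an earlier library, and both wt libraries numbered 3 stood apart from the other 7 in the position of their summits. The 542 libraries had been mapped on a genome with the insertion, so genotype and mapping genome cannot be told apart, and chromosome 2 past the insertion was looked up in wt lists only. This leaves Rps21 out of the 542 lists, which were searched for 85 genes.

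Ribosomal protein promoters were called in most lists at a share well above that of all coding promoters. A gene was called when an interval of the list lay within 1 kb of the start of one of its coding transcripts. In wt HOXA13 libraries this held for 78 of 86 genes in replicate 1 (90.7%, exact 95% binomial interval 82.5 to 95.9), 67 in replicate 2 (77.9%) and 62 in replicate 3 (72.1%), against 55.3%, 44.9% and 36.7% of all coding genes. In wt HOXD13 libraries it held for 50 genes in replicate 1 (58.1%, interval 47.0 to 68.7), 78 in replicate 2 (90.7%) and 62 in replicate 3 (72.1%), against 28.1%, 58.7% and 32.3% of all coding genes. The 542 HOXA13 lists called 77 of 85 genes (90.6%) and 70 (82.4%), against 52.2% and 44% of all coding genes, and the 542 HOXD13 list called 79 (92.9%), against 56.4%. Over the 6 wt lists the share of ribosomal protein genes exceeded that of all coding genes by a mean of 34.3 percentage points (SD 3.42, n = 6 lists). Intervals on shares cover counting error only.

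Most of that excess was shared with other CpG-rich promoters. Coding genes with a CpG-rich start (GC of at least 50% and a CpG observed/expected ratio of at least 0.6 in 500 bp to each side) numbered 10049, and 74.5% ± 13.3 of them (SD, n = 3) were called in wt HOXA13 lists and 65.3% ± 22.8 (SD, n = 3) in wt HOXD13 lists. The ribosomal protein genes stood at 80.2% ± 9.52 (SD, n = 3) and 73.6% ± 16.3 (SD, n = 3), and their mean excess over CpG-rich genes in wt lists was 7.07 percentage points. This gap varied between lists. In wt HOXD13 replicate 2 ribosomal protein genes (90.7%) lay below CpG-rich genes (91.4%). In wt HOXA13 replicate 3 they lay above them (72.1% against 61.0%). Genes of the mitochondrial ribosome, Mrpl and Mrps, a comparison list of 78 genes, were called at 77.4% ± 11.8 and 67.1% ± 26.9 (SD, n = 3 each), and 67 translation factor genes, Eif and Eef, at 76.6% ± 12.7 and 66.7% ± 21.2 (SD, n = 3 each). Olfactory receptor genes, which are silent outside sensory neurons, were called at 0.735% ± 0.184 and 0.617% ± 0.617 (SD, n = 3 each).

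**Figure D1:**
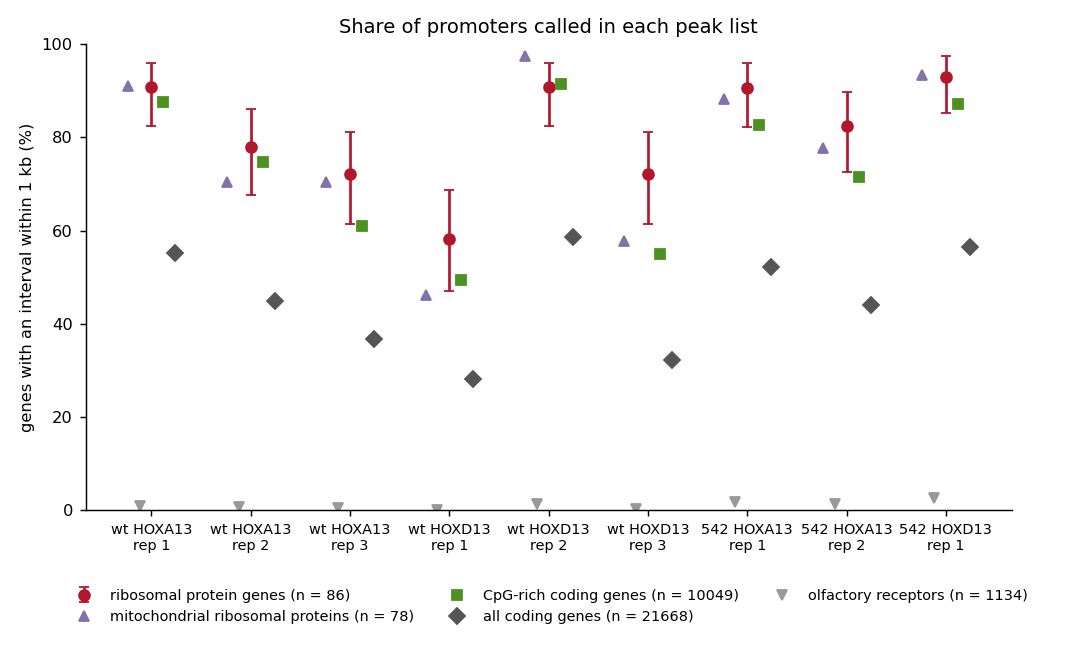
Share of genes (%) with an interval within 1 kb of a start in each of the 9 peak lists, for ribosomal protein genes with exact 95% binomial intervals as bars, and for 4 comparison lists without bars. Ribosomal protein genes sit between 58.1% and 92.9%, above all coding genes in every list, while olfactory receptors stay at or below 2.65%.

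The calls fell on the same genes in many lists. Of the 86 genes, 40 were called in all 6 wt lists, and these 40 were also called in all 3 lists of the 542 line, 18 were called in 5 wt lists, and 5 in none. These were 46.5% in all 6 wt lists and 5.81% in none. Among all coding genes 20.3% were called in all 6 wt lists and 35.8% in none. Comparison sets were nearer, with 36.5% in all 6 and 4.54% in none for CpG-rich coding genes. Translation factor genes had 40.3% and 5.97%, and Mrpl and Mrps genes 32.1% and 0%. Large subunit genes were called at 65.2% to 97.8% in the wt lists and small subunit genes at 51.6% to 96.8%. Of the 77 subunit genes outside the paralogs, Rps4x alone, the X-linked copy of a small subunit gene, was called in no list. Its nearest interval lay 31.9 to 32.2 kb from its start in the 9 lists, and 0% of the 32-base words around its start recur elsewhere in the genome.

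The paralog genes split into an group called throughout and a group never called. Rpl7l1, Rpl22l1, Rpl36al and Rps27l were called in all 9 lists. Rpl3l, a muscle form of a large subunit protein, and Rpl10l and Rpl39l, forms known from the male germ line, were called in none, nor was Rps27rt. The nearest interval lay at 3.41 to 3.69 kb for Rpl3l, 38.5 to 187 kb for Rpl10l, 12.7 to 242 kb for Rpl39l and 3.46 to 28.4 kb for Rps27rt. Within 500 bp of the start, 31.1% of 32-base words recur elsewhere in the genome for Rpl10l and 72.3% for Rps27rt, against a median of 5.57% over the 86 genes. For Rpl3l and Rpl39l the shares were 0.206% and 0%. The part of repeated sequence in the missing calls was not tested.

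A small set of ribosomal genes was called in 1 or 2 wt lists. Rpl35 was called in 1 wt list (HOXA13 replicate 1) and Rps15 in 1 (HOXD13 replicate 2), with fold enrichment of 3.02 and 2.56 over local background. The Rps15 value rests on 30 piled-up read ends, for which counting error alone gives an exact 95% Poisson range of 20.2 to 42.8. Rpl6, Rpl7a, Rps27 and Rps19bp1 were each called in 2 wt lists, 1 per antibody, and the HOXD13 list was replicate 2 for each of them. Rpl7a and Rps27 each share their start region with a coding gene on the other strand, Med22 and Rab13, so an interval there cannot be assigned to 1 of the pair. Such neighbours within 1 kb were present for 13 of the 86 genes.

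The share of ribosomal protein promoters called did not separate the antibodies in whole lists. The mean share was 6.59 percentage points higher for wt HOXA13 than for wt HOXD13, against a pooled SD of 13.4 points between libraries of 1 antibody, and the groups overlapped. Without HOXD13 replicate 1, the shortest list, the difference was -1.16 points. For all coding genes the same difference was 5.94 points. Gene by gene, 54 of 86 were called in as many HOXA13 as HOXD13 lists, 24 in more HOXA13 lists (27.9%) and 8 in more HOXD13 lists (9.30%), beside 23.3% and 9.19% of all coding genes. Rps21 differed most, with all 3 HOXA13 lists and 1 HOXD13 list. The other genes with unequal counts were tied, each differing by 1 list. Of these, Rpl11, Rpl12 and Rpl13 (more often with HOXA13) and Rpl13a (more often with HOXD13) are named only because they come first by symbol.

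In lists of equal length the order turned. When each list was reduced to its 20000 intervals of highest −log10 p, wt HOXA13 lists called 31, 28 and 38 of the 86 genes (36.0%, 32.6% and 44.2% in replicates 1 to 3), against 20.5%, 19.3% and 17.4% of all coding genes. The wt HOXD13 lists called 46, 62 and 51 (53.5%, 72.1% and 59.3%), against 25.2%, 33.3% and 22.2% of all coding genes. Every HOXD13 value lay above every HOXA13 value. The 542 lists showed the same order, with 32 and 29 of 85 genes for HOXA13 (37.6% and 34.1%, against 19.4% and 18.4% of all coding genes) and 46 for HOXD13 (54.1%, against 26.8%). The mean difference in wt, HOXA13 minus HOXD13, was -24.0 percentage points for ribosomal protein genes, beside a pooled SD of 7.94 points, and -7.87 points for all coding genes. The ribosomal difference ranged from -28.1 to -18.8 points with each library left out in turn. It was -7.75, -14.3 and -23.3 points in lists of 5000, 10000 and 15000 intervals, beside -4.79, -6.71 and -7.71 points for all coding genes. Since the genes were chosen with results of these lists known, no test was run on this difference.

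Other promoters moved the same way. CpG-rich coding genes were called at 33.2% ± 2.99 (SD, n = 3) in the shortened wt HOXA13 lists and 47.0% ± 9.83 (SD, n = 3) in the wt HOXD13 lists, and the Mrpl and Mrps genes at 26.9% ± 1.28 and 44.4% ± 12.8 (SD, n = 3 each). Translation factor genes stood at 33.3% ± 3.76 and 54.2% ± 10.2 (SD, n = 3 each). Of the first 20000 intervals, 17.2% to 20.1% lay at a coding start in wt HOXA13 lists and 22.5% to 33.6% in wt HOXD13 lists. The shortened list holds 83.7% of the intervals of HOXD13 replicate 1 but 23.0% of those of HOXA13 replicate 1. Among the ribosomal protein genes, 43 were in more HOXD13 than HOXA13 lists of 20000 intervals, 4 in more HOXA13 lists (Rpl15, Rpl22, Rpl22l1 and Rps3a1) and 39 in as many of each. These were 50% and 4.65% of the set, beside 19.8% and 3.84% of all coding genes and 33.4% and 5.86% of CpG-rich genes. Rpl13a, Rpl18, Rpl29 and Rplp0 were in all 3 HOXD13 lists and no HOXA13 list of this length (4.65%, beside 1.51% of all coding genes and 2.75% of CpG-rich genes). These genes were named after their values were seen.

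**Figure D2:**
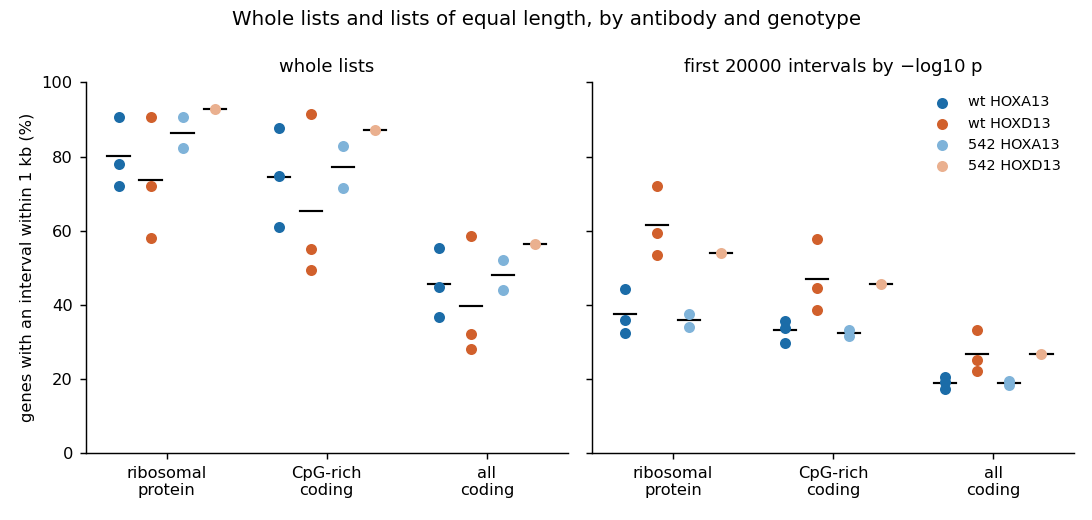
Share of genes (%) with an interval within 1 kb of a start, in whole lists (left) and in the first 20000 intervals of each list by −log10 p (right), for 3 sets of genes. Points are libraries coloured by antibody and genotype and lines are group means. The wt antibodies overlap on the left, and on the right the HOXD13 libraries (53.5% to 72.1% for ribosomal protein genes) lie above the HOXA13 libraries (32.6% to 44.2%).

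The genotypes did not separate either. The mean share called was 6.24 percentage points higher in 542 HOXA13 than in wt HOXA13 lists, beside a pooled SD of 8.47 points, and 2.49 points higher for all coding genes. The ribosomal difference was 2.12 points without 542 HOXA13 replicate 1, 10.4 without 542 replicate 2, 11.47 without wt replicate 1 and 2.17 without wt replicate 3. It was 21.2 points with fold enrichment of at least 5 and 17.4 with −log10 q of at least 5. All coding genes differed by 10.8 and 9.57 points under these 2 limits. In lists of 20000 intervals the difference was -1.71 points, beside -0.13 points for all coding genes. A fold enrichment of at least 5 within 1 kb was reached by 46, 23 and 16 of the 86 genes in wt HOXA13 replicates 1 to 3 (53.5%, 26.7% and 18.6%, against 26.5%, 14.5% and 7.91% of all coding genes) and by 13, 48 and 17 in wt HOXD13 (15.1%, 55.8% and 19.8%, against 10.1%, 27.5% and 8.21%). In the 542 line it was reached by 53 and 39 of 85 genes with HOXA13 (62.4% and 45.9%, against 30.5% and 23.6%) and by 60 with HOXD13 (70.6%, against 35.8%). The single 542 HOXD13 library was the deepest and differs from wt HOXD13 in labelled stage, genotype and mapping genome at once, so these cannot be told apart.

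The peaks at ribosomal protein starts lay near the middle of the promoter peaks in height. Among the coding promoters called in a list, their median percentile of fold enrichment ranged from 46.5 (wt HOXD13 replicate 1) to 65.9 (wt HOXA13 replicate 3). A few genes stood far above the rest. Rpl10 (ENSMUSG00000008682.13, start at position 74270812 of chromosome X in mm10, plus strand), which encodes a late-joining large subunit protein, had fold enrichment of 16.8, 15.4 and 12.0 in wt HOXA13 replicates 1 to 3, 10.3, 12.7 and 10.2 in wt HOXD13, 16.3 and 15.2 in 542 HOXA13 and 16.2 in 542 HOXD13. Its median percentile over the wt lists was 99.2. The Rpl10 summits lay upstream, at a median of -482 bp from the start over all lists, with a range of 333 bp over the wt lists. In the list with the lowest pileup, wt HOXD13 replicate 1, the summit rested on 69 read ends, with an exact 95% Poisson range of 53.7 to 87.3. Rps26 (ENSMUSG00000025362.6, chromosome 10, 128626747, minus strand), a small subunit gene, had 15.7, 12.1 and 9.50 in wt HOXA13, 10.6, 13.0 and 9.12 in wt HOXD13, 17.2 and 15.9 in 542 HOXA13 and 15.3 in 542 HOXD13. Rpl23a (ENSMUSG00000058546.8, chromosome 11, 78183584, minus strand), a large subunit gene, had 14.2, 11.02 and 8.66 in wt HOXA13, 9.81, 12.1 and 9.21 in wt HOXD13, 13.0 and 12.4 in 542 HOXA13 and 14.2 in 542 HOXD13. For all 3 genes the antibodies overlapped. Rpl41, Rpl36a and Rps27l followed, with median wt fold enrichment of 8.03, 7.74 and 8.4.

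The highest peaks belonged to genes with a start outside the CpG-rich class. Of the 86 genes, 75 had a CpG-rich start and 11 did not. Among the 11, 7 were called in all 9 lists (Rpl4, Rpl10, Rpl18, Rpl23a, Rpl41, Rps9 and Rps26) and 4 in none (Rpl3l, Rpl39l, Rps4x and Rps27rt). Of all 11619 coding genes without a CpG-rich start, 6.36% were called in all 6 wt lists and 62.8% in none of them. The 4 genes with the highest median percentile in wt lists, Rpl10, Rps26, Rpl23a and Rpl41, were all among these 11. Their starts missed the limit through GC content of 46.7% to 49.6%, with CpG observed/expected ratios of 0.634 to 0.846.

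**Figure D3:**
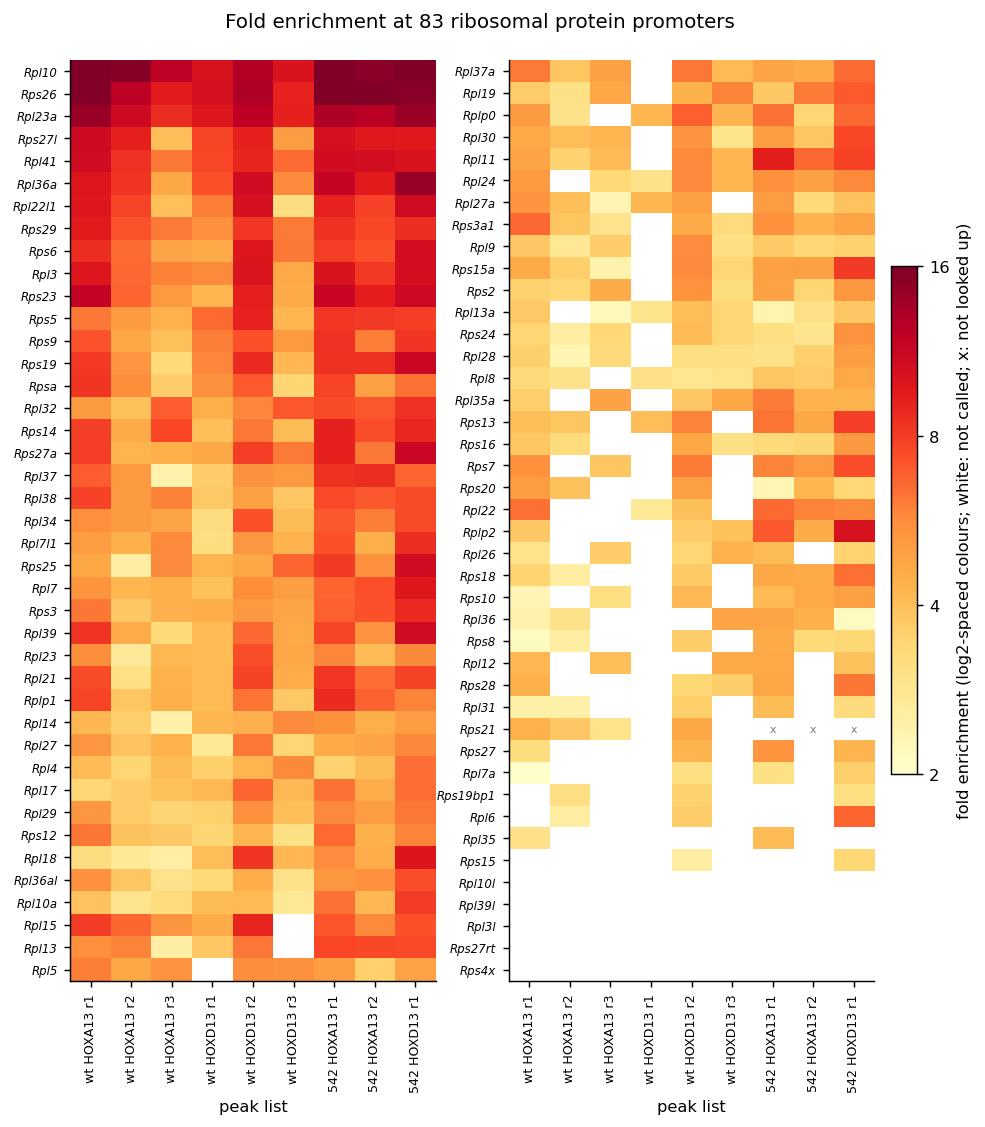
Fold enrichment at 83 of the 86 promoters (rows, continued in the right panel) in each of the 9 lists (columns), ordered by the number of lists that call the gene and then by median wt value. Colours are spaced on a log2 scale, white cells were not called and crosses mark Rps21 in lists where it was not looked up. Rpl10, Rps26 and Rpl23a are dark in every column and the last 5 rows are white throughout.

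The stalk proteins and the genes known from limb or blood phenotypes lay in the middle of this range. Rplp0, Rplp1 and Rplp2 form the stalk of the large subunit. Rplp1 was called in all 9 lists, with fold enrichment of 3.74 to 8.75, Rplp0 in all but wt HOXA13 replicate 3, and Rplp2 in 3 of 6 wt lists and all 3 lists of the 542 line. Rpsa, the laminin receptor homolog of the small subunit, was called throughout, with 3.44 to 8.28. Rpl38, whose loss in mice alters the translation of Hox mRNAs and the axial skeleton, had 7.76, 5.09 and 5.91 in wt HOXA13, 3.75, 4.91 and 3.77 in wt HOXD13, and 6.997 to 7.50 in the 542 line. Its uncentred wt HOXA13 values lay above all its wt HOXD13 values. Rpl38 has 4 annotated starts and its highest summits ranged over 429 bp in the wt lists, so these values need not come from 1 peak. Rps19, the gene most often mutated in Diamond-Blackfan anaemia, had 3.30 to 8.80 in wt lists. Rpl24, Rpl5 and Rpl11 were each missed in 1 wt list, and Rps7 and Rps20 in 3. Values of 1 gene rise and fall with the library, so they are compared within lists or after each list is centred.

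No ribosomal protein promoter passed the test between antibodies or between genotypes with all libraries and no replicate block. The antibody test took 4402 coding promoters called in all 6 wt lists, 40 of them ribosomal, on log2 fold enrichment centred on the median of each list. None was higher in wt HOXA13 (0%) and none lower (0%) at an adjusted p of at most 0.05 (limma, Benjamini-Hochberg), and 389 promoters, 3 of them ribosomal, had an unadjusted p of at most 0.05. The median log2 difference, HOXA13 minus HOXD13, was 0.0047 for the ribosomal and -0.0017 for all promoters. The largest was Rpl18, with fold enrichment of 3.16, 2.73 and 2.54 in wt HOXA13 and 4.04, 8.26 and 4.19 in wt HOXD13. Its log2 difference was -0.92 ± 0.21 (SE), with an adjusted p of 0.188 (limma). Rpl18 has 5 annotated starts, and Sphk2 starts on the other strand within 1 kb. Its highest summits ranged over 2930 bp in the wt lists, so these values need not come from 1 peak or from Rpl18 alone. With the replicate number as a block the adjusted p of Rpl18 was 0.0403 (limma), and 37 promoters were called in all. Without wt HOXA13 replicate 3 there were 39 calls, 1 of them ribosomal. Rpl38 had 0.56 ± 0.22 (SE) and an adjusted p of 0.453 (limma). Rpl14 and Rpl10 had -0.54 ± 0.27 and 0.38 ± 0.22 (SE) and adjusted p of 0.602 and 0.675 (limma).

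The genotype test took 6207 promoters called in all 5 HOXA13 lists, 54 of them ribosomal. None was higher in 542 (0%) and 1 was lower (0.0161%), Ifngr2, which is no ribosomal gene and is named because it was the only call. At an unadjusted p of at most 0.05 there were 541 promoters, 2 of them ribosomal (limma). Rpl5 had a log2 difference, 542 minus wt, of -0.74 ± 0.24 (SE) with an adjusted p of 0.482 (limma), and Rpl11 one of 0.53 ± 0.24 (SE) with an adjusted p of 0.566 (limma). The median difference was -0.03 for the 54 ribosomal and -0.05 for all promoters. Rpl15, Rpl18 and Rpl37 came next, with -0.43 ± 0.21, 0.45 ± 0.22 and 0.55 ± 0.27 (SE) and adjusted p of 0.583, 0.590 and 0.592 (limma). Replicates were separate pools of embryos, and these p-values measure the spread between libraries. That spread includes the wt libraries whose summits stood apart. Differences between pools and any differences between library batches cannot be told apart in it.

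Summits at ribosomal protein starts lay close to the start and mostly upstream of it. The highest summit fell within 200 bp of the start for 53.2% to 87.2% of the called ribosomal genes, against 41.2% to 59.7% of called coding genes. CpG-rich genes had 44.2% to 65.8%, Mrpl and Mrps genes 56.4% to 80.3% and translation factor genes 51.2% to 70.4%. Of ribosomal summits 23.1% to 33.9% lay downstream, against 31.6% to 39.2% for all coding genes. CpG-rich genes had 28.5% to 36.9% downstream, Mrpl and Mrps genes 27.8% to 48.9% and translation factor genes 21.9% to 36.7%. The median position relative to the start, negative upstream, ranged from -112.5 bp (wt HOXD13 replicate 3) to -28 bp (wt HOXD13 replicate 2). The libraries numbered 3 differed from the other 7. Within 200 bp lay 56.5% of summits in wt HOXA13 replicate 3 and 53.2% in wt HOXD13 replicate 3, and 74.6% to 87.2% in the rest. All coding promoters showed the same order, with 41.2% and 47.1% in these libraries against 55.0% to 59.7%. At Rpl36a the summit lay at 257 and 41 bp in the libraries numbered 3 and between -39 and 3 bp in the other 7. The cause of this shift was not tested.

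**Figure D4:**
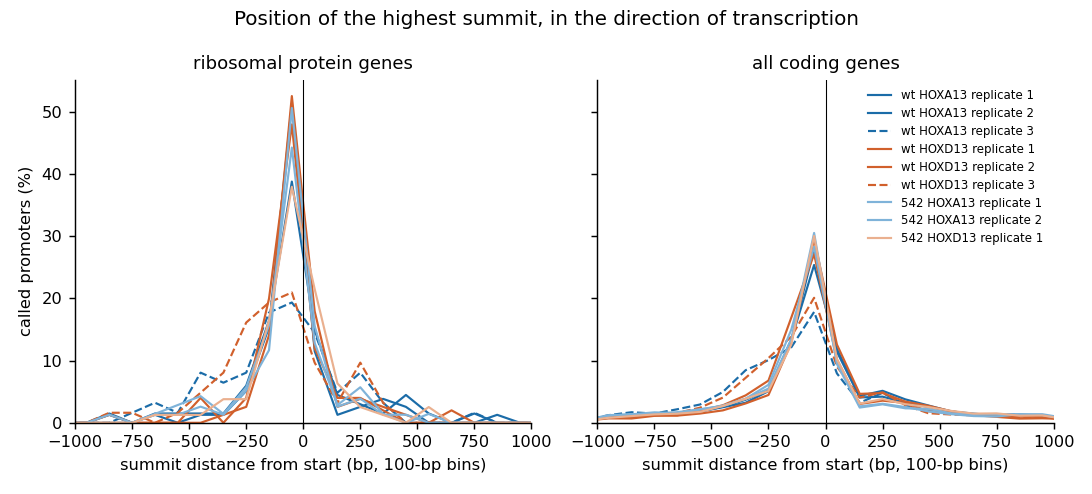
Share of called promoters (%) by distance of the highest summit from the start in 100-bp bins, 0 being the start and positive values downstream, for ribosomal protein genes (left) and all coding genes (right), 1 line per library. The dashed lines, wt replicates 3 of both antibodies, are lower at the start and broader upstream.

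The exact summit was seldom held. Of the 40 genes called in all 6 wt lists, 6 had their summits within 100 bp of each other (15%, against 22.6% of 4402 coding promoters), and the median range was 299.5 bp (286 bp for all). Rpl23a was the exception, with a range of 6 bp over the wt lists. Its summits lay between -17 and -8 bp from the start in all 9 lists. At Rpl38 the summit lay between -415 and -397 bp in wt HOXA13 lists and HOXD13 replicate 3, and at -29 and 14 bp in HOXD13 replicates 1 and 2. These Rpl38 distances are from the GENCODE start. From the RefSeq start of the printed sequence the same summits lay between -471 and -453 bp, and at -85 and -42 bp. These genes were named by their peak height or by the list of phenotypes, and their positions were read after the values were seen.

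HOX13 words were found at few ribosomal protein summits and at few summits of other promoters. In the 50 bp around the highest summit, a word was present in 5.31% ± 0.59 of the called ribosomal genes (SD, n = 3) in wt HOXA13 lists and 4.25% ± 2.32 (SD, n = 3) in wt HOXD13 lists, from 1 to 4 genes a list. All called coding promoters stood at 4.04% ± 0.20 and 3.59% ± 0.82 (SD, n = 3 each). Intervals farther than 10 kb from every coding start stood at 12.6% ± 2.07 and 10.6% ± 2.95 (SD, n = 3 each). Each list gave this order between intervals far from starts and ribosomal protein promoters. The words are AT-rich, while 75 ribosomal protein genes have a CpG-rich start. Windows were not matched for base composition, so its part in this order was not tested. In the 542 line the shares for ribosomal genes were 3.90% and 8.57% with HOXA13 and 5.06% with HOXD13, beside 18.6%, 17.8% and 12.51% for intervals far from starts.

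The words came from few genes. Rpl23a held CTCATAAA from position -20 relative to its start (chr11:78183597-78183604, mm10, on the strand opposite to transcription), within the summit window in all 9 lists. Rpl36a held CCTATAAA, in the summit window of 6 lists, 3 of them wt. This word contains TATAAA, so a HOX13 word and a TATA word cannot be told apart there. Rpl15, Rps12, Rps20 and Rps24 gave a word in 1 or 2 lists each.

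**Figure D5:**
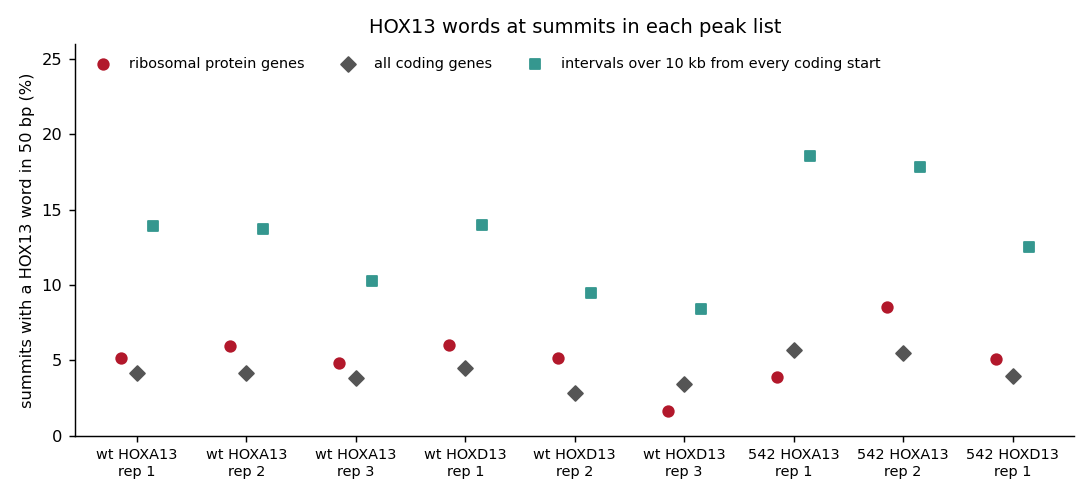
Share of summits (%) with a HOX13 word in the surrounding 50 bp in each list, for ribosomal protein promoters, all coding promoters and intervals farther than 10 kb from every coding start. Intervals far from starts (8.39% to 18.6%) lie above both promoter sets in every list.

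CCGGAA and a pyrimidine start were more frequent in these promoters than in all coding promoters, and no test was run on these shares. RefSeq promoters were matched for 66 of the 86 genes and 16426 coding genes, with 250 bases before and 50 after the start. CCGGAA, the core that ETS factors bind, was in 33 of 66 (50.0%), against 19.96% of all. AAGATGGC, the YY1 word, was in 5 (7.58%, against 3.28%), TATAAA in 6 (9.09%, against 12.9%) and a HOX13 word in 3 (4.55%, against 8.85%), which were Rpl27, Rpl36a and Rplp0. A C at the start followed by at least 4 pyrimidines was present in 13 (19.7%, against 2.17%), and in 28 (42.4%, against 18.9%) when a shift of up to 5 bases was allowed. Words were searched on both strands, CCTATAAA counts as both a HOX13 word and TATAAA, and a match describes the sequence only.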

How the data were processed

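Per the labels and the study's methods, CUT&RUN reads were trimmed with cutadapt, mapped with Bowtie (wt on mm10, 542 on the mutant genome), filtered on mapping quality with SAMtools and passed through Picard and bedtools to MACS2, which centred 200 bp on each read end, used a q-value limit of 0.05 and no control, and gave 1 list per library. The study's summary speaks of removed duplicates, but its Picard command only marks them and MACS2 kept all, so read ends may include copies and Poisson ranges may be too narrow. The mapping filter removes reads from repeated sequence. The deposited values, made by the authors at each summit, are fold enrichment (a ratio of pileup to local background), −log10 p-value, −log10 q-value and a score.

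The members and comparison lists were chosen with earlier results of these data known. Starts were those of coding transcripts in the GENCODE annotation of mm10. Rows of 1 interval were joined. Groups were compared by shares, without a test, or with limma 3.58.1 in R 4.3.3 after centring, adjusted by Benjamini-Hochberg. Pileups were solved from fold enrichment and −log10 p and came out whole within 0.01 for 99.9% of summits or more in each list. Scripts used Python 3.11.15, pandas 2.3.3, numpy 2.4.6, scipy 1.17.1 and pysam 0.24.0 and were tested on simulated data. Named genes were the 6 with the highest median percentile, those called in the fewest wt lists, the 5 with the largest antibody difference in lists (ties by symbol), the 5 of smallest p per fit, paralogs, stalk genes and Rpsa, genes of known phenotype, and genes with HOX13 words in at least 4 wt lists. Others were named after their values were seen, and 3 genes are not reported here by name. Same-numbered wt libraries deviated from their antibody means with correlations of 0.0076, 0.229 and 0.566, so replicate numbers were not taken to pair them. Alternatives changed distance, starts, interval filters, genes, scale, the replicate block and each library.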

Additional observations from a re-analysis of the deposited data

How the results depend on the processing

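Of the alternative values computed, 159 stayed within the replicate spread or the margin for counts, 50 moved and 4 turned. With fold enrichment of at least 5 the share of ribosomal protein genes called was 32.9% (wt HOXA13), 30.2% (wt HOXD13), 54.1% (542 HOXA13) and 70.6% (542 HOXD13), the genotype difference 21.2 percentage points and the wt excess over all coding genes 15.8 points. All coding genes stood at 16.3%, 15.3%, 27.1% and 35.8%, with a genotype difference of 10.8 points. With −log10 q of at least 5 the wt HOXA13 share was 65.5% and the genotype difference 17.4 points, beside 33.0% and 9.57 points for all coding genes. In the first 20000 intervals by −log10 p the shares were 37.6% (wt HOXA13), 35.9% (542 HOXA13) and 54.1% (542 HOXD13), the antibody difference -24.0, the genotype difference -1.71 and the excess 26.6 points, and by fold enrichment 38.0%, 38.2% and 51.8%, with -20.2 points between antibodies and an excess of 25.6. All coding genes stood at 18.4%, 18.1% and 26.5% by fold enrichment, with -8.05 points between antibodies. Without paralogs and Rps19bp1 the 542 HOXD13 share was 97.4%, and against CpG-rich genes the excess was 7.07 points. The antibody difference in equal lists was -7.75 and -14.3 points at 5000 and 10000 intervals, lengths chosen after seeing the data. All coding genes gave -4.79 and -6.71 points at these lengths. HOX13 words were found at 7.20% (100 bp) and 11.1% (200 bp) of wt HOXA13, 10.7% of wt HOXD13 and 9.55% of 542 HOXA13 summits (200 bp), at 19.5%, 15.4%, 20.5% and 15.2% with the core words ATAAA and GTAAA (wt HOXA13, wt HOXD13, 542 HOXA13, 542 HOXD13), and at 8.82%, 9.26% and 9.59% with fold enrichment of at least 5 (first 3 groups). In the same order, all coding promoters had 7.56%, 10.9%, 9.56% and 12.7% in the wider windows. They had 15.7%, 14.2%, 18.8% and 14.2% with the core words, and 6.41%, 4.86% and 6.77% with that fold enrichment. Intervals far from starts had 44.8%, 41.3%, 56.4% and 45.3% with the core words, and 19.9%, 16.5% and 23.7% with that fold enrichment. From the nearest coding start the median 542 HOXA13 distance was -49.2 bp.

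With each library left out in turn, shares called ranged from 75% to 84.3% (wt HOXA13), 65.1% to 81.4% (wt HOXD13) and 82.4% to 90.6% (542 HOXA13). The antibody difference ranged from -1.16 (without wt HOXD13 replicate 1) to 15.1 points, in equal lists from -28.1 to -18.8, the genotype difference from 2.12 to 11.47 and the excess from 33.2 to 35.1. Shares with a HOX13 word ranged from 4.98% to 5.55%, 3.37% to 5.56% and 3.90% to 8.57%, median distances from -54.2 to -41.8, -79.5 to -37.2 and -46 to -44 bp, and median percentiles from 52.5 to 61.7, 53.3 to 60.7 and 52.2 to 60.9 (wt HOXA13, wt HOXD13, 542 HOXA13). Antibody calls ranged from 0 to 39 over all promoters, 39 without wt HOXA13 replicate 3, and from 0 to 1 among ribosomal genes, and genotype calls from 0 to 4 and 0 to 0.

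Against no antibody call, limma gave 1 without centring, 2 on −log10 p and 4 without the wt libraries numbered 3, the last chosen after seeing the data. Against 1 genotype call it gave 2 without centring, 0 on −log10 p, 0 within 500 bp and 4 without wt replicate 3. With the replicate number as a block the fit called 37 promoters between antibodies, of which 1 was ribosomal (Rpl18, adjusted p = 0.0403, limma), and 2 between genotypes, none ribosomal. Shares differed under the block by 6.59 points between antibodies, -24.0 in equal lists, and 2.17 between genotypes. wt HOXA13 replicate 1 correlated best with wt HOXD13 replicate 2 (0.465), not with its own number. Values of peaks exist only where a list made a call, so an uncalled promoter is one below the caller's limit at that depth and not one without signal. The causes of these changes were not tested.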
